A study of Homo sapiens with 9 samples.

Results

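LINC01029 and LINC02074 are long intergenic noncoding RNAs, and they were the 2 of 60609 gene identifiers in the count tables that are described here. Both were chosen because they had been seen lower in cells overexpressing NCBP2 than in empty-vector cells in these same libraries, so their levels in those groups are given as a description, without a test. They were found by symbol in GENCODE release 44 and matched to the tables by Ensembl identifier, ENSG00000265843.3 for LINC01029 and ENSG00000266357.6 for LINC02074. The study sequenced RNA of U2-OS, an established cell line from a human osteosarcoma. In the NCBP2 group, clones A1 and A4 overexpressed NCBP2, and each gave 3 libraries, named A, B and C. In the control group, 3 separate clones carried the empty vector, with 1 library each: clone 2 gave replicate A, clone 3 replicate B and clone 1 replicate C. Each NCBP2 clone is a single line, so what belongs to the clone and what belongs to NCBP2 cannot be told apart within it, and the labels do not say whether the 3 libraries of a clone were separate cultures.

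Long noncoding RNAs of this kind are transcribed from their own promoters between protein-coding genes, and they are commonly capped, spliced and polyadenylated. NCBP2 is the smaller protein of the cap-binding complex in the nucleus, which with NCBP1 holds the cap of new RNA polymerase II transcripts and links them to splicing, export, 3′ end formation and decay.

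LINC01029 lay on the minus strand at chr18:77970637-77993731 (GRCh38), a span of 23095 bases with 15 annotated transcripts and 4449 exonic bases in 7 merged exons. LINC02074 lay on the minus strand at chr17:74043452-74154212, a span of 110761 bases with 6 annotated transcripts and 2181 exonic bases in 9 merged exons. No exonic base of either gene was shared with another annotated gene on either strand, so reads in their exons could be assigned to them alone. The RNAs were 508 to 2052 bases long for LINC01029 and 569 to 1342 bases long for LINC02074, and their GC content was 42.6% to 49.4% and 42.8% to 51.1%.

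The stretch of exon that the most transcripts of each gene hold is printed because most isoforms would be counted through it. It is at chr18:77972354-77972513 for LINC01029, in 13 of 15 transcripts, and at chr17:74091022-74091176 for LINC02074, in 6 of 6 transcripts. Both are in the sense of the RNA, 5′ to 3′ in DNA letters, from the GENCODE 44 transcripts, and nothing in them is marked.
LINC01029 shared exon: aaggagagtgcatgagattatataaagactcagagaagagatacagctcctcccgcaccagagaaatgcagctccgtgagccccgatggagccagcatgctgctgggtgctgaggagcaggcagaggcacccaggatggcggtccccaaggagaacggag
LINC02074 shared exon: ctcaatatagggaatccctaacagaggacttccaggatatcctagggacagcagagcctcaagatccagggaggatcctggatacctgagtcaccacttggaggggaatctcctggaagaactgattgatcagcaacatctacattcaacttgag

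The last 60 bases are printed for 1 annotated transcript of each gene, chosen among those that hold the letters AATAAA there. These letters, the usual signal for cleavage and polyadenylation, are in capitals. The printed stretches are at chr18:77970637-77970696 and chr17:74062111-74062170, on the minus strand of GRCh38.
LINC01029 RNA end: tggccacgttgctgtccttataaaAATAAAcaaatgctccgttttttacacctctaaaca
LINC02074 RNA end: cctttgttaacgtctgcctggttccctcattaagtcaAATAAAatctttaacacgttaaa
The motif began 36 bases before the end in the first and 23 bases before it in the second. It was searched in the sense of the RNA only, and it was in the last 60 bases of 2 of 15 LINC01029 transcripts and 4 of 6 LINC02074 transcripts. Of 56355 annotated long noncoding transcripts of at least that length, 38.8% held it in the same window. A match of these letters is a description of the annotation and not a mapped RNA end.

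Counts in genes ranged from 29234022 to 50554080 per library. Clone A1 replicate A stood apart, with Pearson correlations of log2 CPM (counts scaled to a common library size by TMM) of 0.899 to 0.928 with the other 8 libraries, while the best correlation of each other library was 0.959 to 0.97. The overexpressed gene was higher in every NCBP2 library than in every vector library: the vector libraries held NCBP2 at 98.4, 90.6 and 98.3 CPM, clone A1 held it at 299, 348 and 305 CPM, and clone A4 at 796, 1035 and 456 CPM, each in the order A, B, C. By edgeR's quasi-likelihood test with Benjamini-Hochberg adjustment over 21682 genes, NCBP2 rose by 1.73 on the log2 scale in clone A1 (SE 0.242, adjusted p = 0.0327) and by 2.99 in clone A4 (SE 0.254, adjusted p = 4.17e-04). With both clones as 1 group, its difference from vector was 2.50 (log2, SE 0.407, adjusted p = 0.123). Of 8 osteosarcoma and mesenchymal markers, 5 (RUNX2, ALPL, COL1A1, SPARC and VIM) were at 1 CPM or more in all 9 libraries. The osteoblast genes SP7 and BGLAP were at or near 0, and COL1A2 was at 0 to 1.15 CPM with a median of 0.217 CPM. TERT and CDKN2A, both known to be silent in U2-OS, had 0 counts in every library. Summed markers of other cell types stayed at 9.08 CPM or less for epithelium, 2.01 for blood and 1.82 for endothelium. Among them, the epithelial gene EPCAM was also above 1 CPM in all libraries, at 2.42 to 5.58 CPM, while ALPL was at 1.20 to 4.12 CPM.

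LINC01029 was abundant in the empty-vector clones and low in every NCBP2 library. The vector libraries held 4412, 2417 and 3354 counts in the sense of the gene, clone A1 held 284, 429 and 614, and clone A4 held 507, 425 and 406, each in the order A, B, C. Scaled for library size, these were 10.0, 11.5 and 14.4 CPM in clone A1. In clone A4 they were 10.6, 9.67 and 9.09 CPM. In the vector libraries they were 95.6, 47.2 and 81.8 CPM. The groups of NCBP2 and vector libraries did not overlap: the lowest vector library, from vector clone 3, was at 47.2 CPM and the highest NCBP2 library, clone A1 replicate C, at 14.4 CPM. As bulk measurements, these cannot tell fewer cells with the RNA from less RNA per cell.

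The mean level of LINC01029 was 74.9 ± 24.9 CPM in vector, 11.99 ± 2.26 CPM in clone A1 and 9.80 ± 0.781 CPM in clone A4 (SD, n = 3 each). The mean was thus 6.24-fold higher in vector than in clone A1 and 7.64-fold higher than in clone A4. The fitted log2 fold changes were -2.64 for clone A1 (SE 0.270), -2.93 for clone A4 (SE 0.273) and -2.78 for both clones together (SE 0.217). Both clone values share the same vector libraries. Leaving out clone A1 replicate A gave -2.52 for clone A1 and -2.76 for both clones. The spread among libraries was widest among the vector clones, where the highest library was 2.03-fold above the lowest, against 1.44-fold in clone A1 and 1.17-fold in clone A4.

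LINC02074 was lower in clone A1 than in vector and had no count at all in clone A4. The vector libraries held 726, 427 and 324 counts of it, clone A1 held 40, 110 and 64, and clone A4 held 0, 0 and 0, each in the order A, B, C. Scaled, it stood at 1.41, 2.96 and 1.51 CPM in clone A1. It stood at 15.7, 8.33 and 7.91 CPM in the vector libraries. All 3 clone A4 libraries were below all clone A1 libraries, and these were all below the vector libraries.

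The mean level of LINC02074 was 1.96 ± 0.868 CPM in clone A1 and 10.7 ± 4.40 CPM in vector (SD, n = 3 each), a 5.45-fold higher mean in vector. The fitted log2 fold change was -2.44 for clone A1 (SE 0.442), and -2.25 without clone A1 replicate A. For both clones together it was -3.46 (SE 1.10), or -4.24 without clone A1 replicate B, the clone A1 library with the highest level. For clone A4 a fold is only a lower bound. With 0 of 133668411 gene counts in the 3 clone A4 libraries, a floor of 3 counts over the group allows up to 0.0220 CPM, and LINC02074 was at least 484-fold higher in vector and at least 88.9-fold higher in clone A1. The same floor set within a single clone A4 library was 0.0629 to 0.0683 CPM. These floors account for the error of counting alone, since the reads carry no molecular identifiers and are not independent molecules. Column 4 of the tables, the opposite strand, held 0 counts of LINC02074 in 7 libraries and 4 counts in each of vector replicates B and C, so the zeros in clone A4 stood without regard to strand as well.

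**Figure D1:**
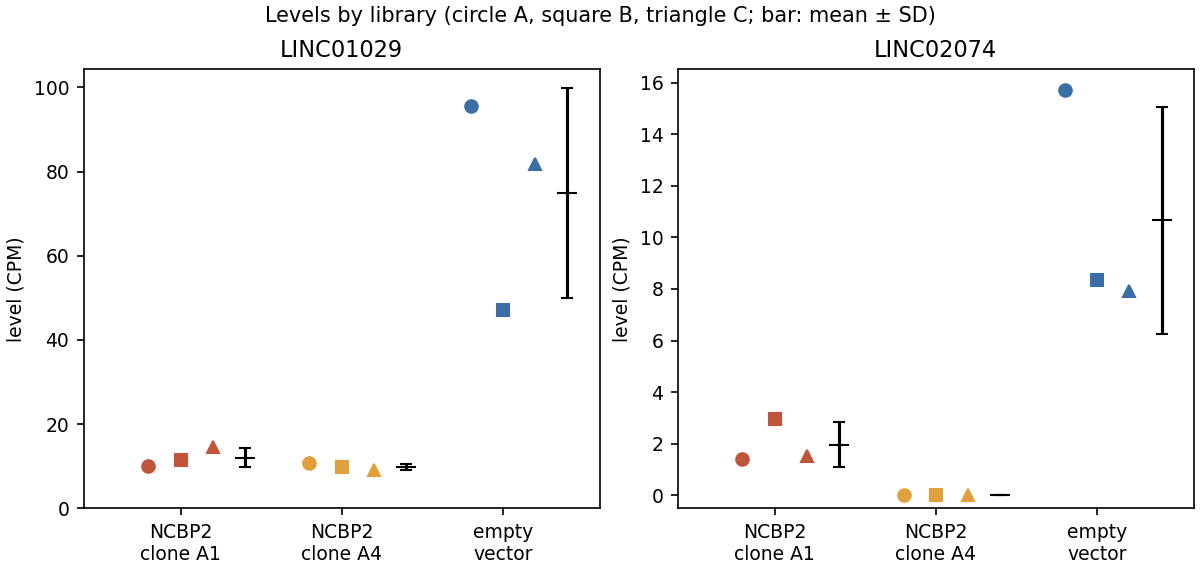
Level of LINC01029 (left) and LINC02074 (right) in CPM (library-scaled counts, vertical axis) in each of the 9 libraries, with circles, squares and triangles for replicates A, B and C and bars for the mean ± SD of 3 libraries. All NCBP2 libraries sit below all vector libraries for both RNAs, and LINC02074 sits at 0 in the 3 libraries of clone A4.

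Across all genes tested, 2.26% had every NCBP2 library below every vector library by CPM, and both RNAs were among them, as the rule that chose them required them to be lower. LINC02074 also had every clone A4 library below every clone A1 library, an order found in 5.72% of all genes. For LINC01029 those 2 clones overlapped. The difference between clone A4 and clone A1 was the one comparison of LINC01029 that the choice had not used, and it was -0.29 (log2, SE 0.257, edgeR adjusted p = 0.848), which did not pass the threshold of 0.05. It lay between -0.41 and -0.13 in the 15 alternative analyses, with adjusted p from 0.746 to 1.

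Within clone A4, replicates C, A and B held NCBP2 at 456, 796 and 1035 CPM and LINC01029 at 9.09, 10.6 and 9.67 CPM, while LINC02074 had 0 counts in all of them. The mean of NCBP2 was 2.403-fold higher in clone A4, and that of LINC01029 was 1.22-fold higher in clone A1. LINC02074 had a mean of 1.96 CPM in clone A1 and 0 CPM in clone A4. The vector clones were close to each other in NCBP2, at 90.6 to 98.4 CPM, while LINC01029 spanned 47.2 to 95.6 CPM and LINC02074 7.91 to 15.7 CPM among them. Vector clone 2 was the highest for both RNAs. Vector clone 3 was the lowest for LINC01029, and vector clone 1 was the lowest for LINC02074.

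Per kilobase of exon, a scale on which genes can be compared, LINC01029 was the more abundant of the pair in each group. In vector its mean level was 16.8 CPM per kb, against 4.88 CPM per kb for LINC02074. In clone A1 the levels were 2.695 and 0.897 CPM per kb, and in clone A4 they were 2.20 and 0 CPM per kb. Among 4670 long noncoding RNAs tested, LINC01029 held place 45 from the top in vector, place 605 in clone A1 and place 751 in clone A4. LINC02074 held place 251 in vector, place 1755 in clone A1 and place 4665 in clone A4, among the genes at 0. The median long noncoding RNA was at 0.545 CPM per kb in vector, so both RNAs were above it there.

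The strand of the reads was that of the annotated genes. Counts of LINC01029 on the opposite strand were 29, 10 and 7 for vector, 1, 4 and 3 for clone A1 and 10, 4 and 4 for clone A4. They made up 0.208% to 1.93% of its stranded counts, while the opposite strand held 5.51% to 6.42% over all genes of a library. The fall of the sense counts was thus not matched by a rise on the other strand in these columns.

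To see whether the surrounding genes differed as well, all genes within 1 Mb of each RNA were examined. The neighbourhood of LINC01029 is sparse: of 29 annotated genes, 18 had 0 counts in all 9 libraries and 5 were expressed enough to be tested. With the test as described above, edgeR called 0 of the 5 in each of the 4 comparisons, beside 0.0184% of all genes tested for both NCBP2 clones against vector, 0.0646% for clone A1, 0.115% for clone A4 and 0.161% for clone A4 against clone A1. At shares this low, 0 calls among 5 genes is what all genes would give. At an unadjusted p under 0.05, 1 neighbour was higher and 1 lower for both clones, 1 was lower for clone A1, 1 was higher and 1 lower for clone A4, and 0 were under it between the clones. These were 40%, 20%, 40% and 0% of only 5 genes. Over all genes tested, 5.71%, 7.51%, 5.25% and 6.63% were under that p in the same 4 comparisons. Of the 5 neighbours, 4, 2, 4 and 3 had a log2 difference above 0, with medians of 0.53, -0.003, 0.99 and 0.10. ENSG00000266844, a long noncoding RNA gene 986.5 kb downstream, was higher in every NCBP2 library than in every vector library. It was at 0.325, 0.410 and 0.683 CPM in vector, 0.809, 0.941 and 1.36 CPM in clone A1 and 1.24, 0.933 and 1.25 CPM in A4. This gene has no symbol, was singled out after its values were seen, and was not called by edgeR in any comparison. The share of all genes with every NCBP2 library higher was not counted. DESeq2 called 1 neighbour, lower, in each of the 3 comparisons with vector and 0 between the clones. Over all 21682 genes, DESeq2 called 103, 274, 185 and 246 in the same 4 comparisons.

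The neighbour that DESeq2 called was ENSG00000264334, which edgeR also called under some alternatives. It is a long noncoding RNA gene without a symbol at chr18:77983020-77986610. It is on the same strand as LINC01029 and lies within its span, with no exonic base in common. It has no symbol and so falls outside the naming rule, and it was singled out after its values were seen. Vector libraries held it at 16.8, 6.91 and 15.8 CPM, clone A1 at 4.36, 1.64 and 3.25 CPM, and clone A4 at 3.27, 0.910 and 0.963 CPM. Every NCBP2 library was below every vector library, and the order of the vector clones, 2 above 1 above 3, was that of LINC01029. By edgeR its log2 difference was -2.46 for both clones (SE 0.468, adjusted p = 0.150), -2.10 for clone A1 (SE 0.550, adjusted p = 0.283) and -2.94 for clone A4 (SE 0.569, adjusted p = 0.120). By DESeq2 the adjusted p values were 5.78e-04, 0.0159 and 3.31e-05. By edgeR with the replicate letters as a block they were 0.0304, 0.0401 and 0.00532. By edgeR without the filter on low counts they were 0.0680, 2.95e-05 and 3.69e-10. By edgeR on counts summed per clone, the adjusted p for both clones was 0.9997, so the call depended on the setting. Reads of unspliced LINC01029 RNA over these exons would also be counted for this gene, and the 2 sources cannot be told apart in gene counts. Its counts were 14.2% to 43.7% of those of LINC01029 in clone A1, 9.41% to 30.8% in clone A4 and 14.7% to 19.3% in vector, so these shares overlapped between all groups.

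The nearest protein-coding genes to LINC01029 that were tested lay downstream of it at 837 kb and beyond. ZNF236, a zinc-finger protein gene 997.7 kb away, was at 41.1, 35.2 and 43.5 CPM in vector, 43.4, 35.4 and 40.8 CPM in clone A1 and 40.2, 44.1 and 43.8 CPM in A4. Its log2 difference between the NCBP2 clones and vector was 0.05 (SE 0.147, edgeR adjusted p = 0.999), and the groups overlapped. MBP, which encodes myelin basic protein, was under 1 CPM in every library, with a mean of 0.491 CPM in the NCBP2 libraries and 0.222 CPM in vector (log2 difference 1.14, SE 0.798, adjusted p = 0.999). The summed level of all genes within 1 Mb, LINC01029 left out, was 45.2 ± 5.80 CPM in clone A1, 47.5 ± 1.28 CPM in clone A4 and 54.7 ± 10.0 CPM in vector (SD, n = 3 each). The ranges of the 3 groups overlapped. This sum includes ENSG00000264334, which lies inside the span of LINC01029. Its mean was 13.17 CPM in vector, 3.083 CPM in clone A1 and 1.715 CPM in clone A4.

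The neighbourhood of LINC02074 is denser. It held 77 annotated genes, 76 of them in the tables, 25 with 0 counts in all 9 libraries and 33 tested, 26 of these protein-coding. Neither edgeR nor DESeq2 called any of the 33 in any of the 4 comparisons. Over all 21682 genes, edgeR called 0.0184%, 0.0646%, 0.115% and 0.161%, and DESeq2 called 103, 274, 185 and 246 genes. At the edgeR shares, 0 calls among 33 genes is what all genes would give. At an unadjusted p under 0.05 by edgeR, 3 were lower with both NCBP2 clones together and 2 with clone A1, and there were 0 for clone A4 against vector and 0 between the clones. These were 9.09%, 6.06%, 0% and 0% of the 33, beside 5.71%, 7.51%, 5.25% and 6.63% of all genes. The median log2 difference of the 33 was -0.04 for both clones against vector, -0.16 for clone A1 and 0.06 for clone A4, beside 0.02, -0.02 and 0.03 over all genes tested.

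RPL38, which encodes a protein of the large ribosomal subunit, was the tested neighbour nearest to LINC02074, starting 49.4 kb upstream on the opposite strand. It was at 149.1, 128.5 and 105.2 CPM in vector, 134.5, 131.6 and 125.4 CPM in clone A1 and 127.2, 131.9 and 139.7 CPM in A4. In clone A4, where LINC02074 had 0 counts, the log2 difference of RPL38 from vector was 0.06 (SE 0.161, edgeR adjusted p = 0.9997). The next genes upstream, MGC16275 and the tweety-family membrane protein gene TTYH2, were 55.8 and 59.4 kb away. TTYH2 was at 4.31 to 7.75 CPM in vector, 3.24 to 7.21 CPM in clone A1 and 3.44 to 8.49 CPM in A4, and MGC16275 stayed under 1 CPM in every library.

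Among the 12 named neighbours of LINC02074, the largest differences from vector at a mean of 10 CPM or more were those of SDK2 and NHERF1, and neither passed the test. SDK2, a cell-adhesion gene 399.0 kb downstream, was at 21.6, 40.7 and 19.0 CPM in vector, 10.6, 17.3 and 15.1 CPM in clone A1 and 15.9, 15.2 and 23.7 CPM in A4. Its log2 difference for clone A1 was -0.92 (SE 0.318, edgeR adjusted p = 0.459). NHERF1, which encodes a PDZ scaffold protein and lies 594.4 kb upstream, had a mean of 37.99 CPM in clone A1, 49.0 CPM in clone A4 and 61.0 CPM in vector (clone A1 log2 difference -0.68, SE 0.250, adjusted p = 0.509). CDC42EP4, an effector of the GTPase Cdc42 at 731.4 kb downstream, was at 83.9 to 115 CPM in all 9 libraries. The other named neighbours were GPRC5C, RAB37, NAT9, TMEM104, GRIN2C and FDXR, with edgeR adjusted p from 0.766 to 0.9997 in the 4 comparisons. The summed level of the neighbours was 887.7 ± 56.4 CPM in clone A1, 914.1 ± 43.6 CPM in clone A4 and 955.6 ± 104.4 CPM in vector (SD, n = 3 each), and the ranges overlapped.

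**Figure D2:**
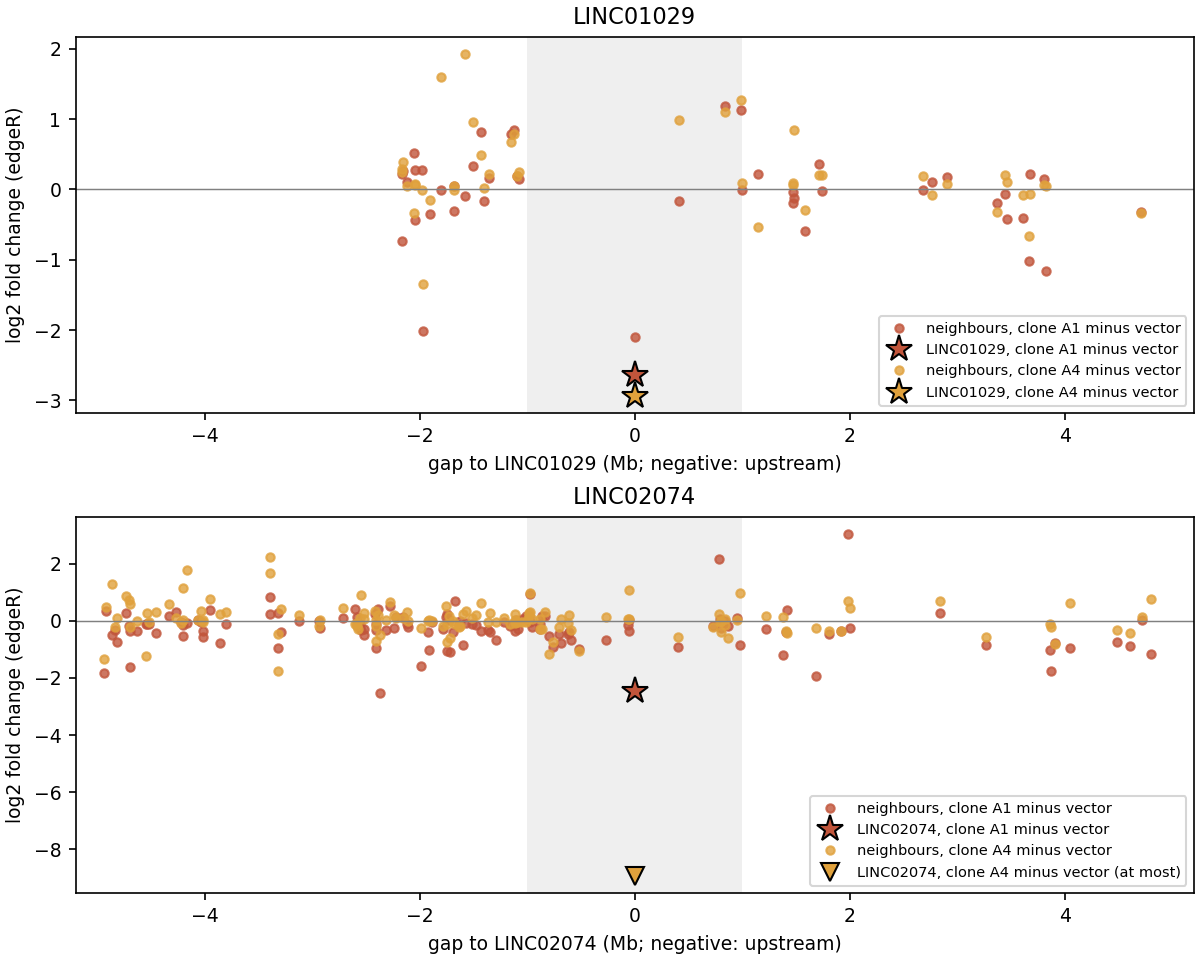
Log2 fold change against vector (vertical axis, edgeR) of every tested gene within 5 Mb of LINC01029 (top, 46 genes) and LINC02074 (bottom, 140 genes), by the gap to the RNA in Mb, with the 1 Mb window shaded. Stars mark the RNAs themselves, and the triangle is the value that LINC02074 in clone A4 is at most, -8.92, set by a floor of 3 counts. Within the window, the points lowest beside LINC01029 are those of the gene inside its span, with the clone A4 point hidden by the star at -2.93. No neighbour of LINC02074 within the window is as low as it. Beyond the window, the lowest clone A1 point is at -2.54, below LINC02074 at -2.44.

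The other genes with a LINC symbol were rarely called by edgeR, but their shares at an unadjusted p under 0.05 were above those of all genes. The shares of all long noncoding RNAs were below those of all genes. Of 2239 such genes in the tables besides the pair, 567 were tested. By edgeR, 0 were called with both NCBP2 clones against vector (22 higher and 22 lower at an unadjusted p under 0.05, and 0 called by DESeq2). With clone A1 against vector 0 were called (16 higher and 40 lower unadjusted, 8 called by DESeq2). With clone A4 against vector 1 was called, lower (32 higher and 13 lower unadjusted, 4 called by DESeq2). Between the clones 0 were called (37 higher and 10 lower in clone A4 unadjusted, 10 called by DESeq2). Over all 21682 genes, edgeR called 0.0184%, 0.0646%, 0.115% and 0.161% in these comparisons and DESeq2 called 103, 274, 185 and 246 genes. At an unadjusted p under 0.05 by edgeR, there were 7.76%, 9.88%, 7.94% and 8.29% of the LINC genes, beside 5.71%, 7.51%, 5.25% and 6.63% of all genes. Of all 4670 long noncoding RNAs tested, LINC genes included, there were 4.45%, 5.46%, 4.15% and 5.22%. The median log2 difference of the 567 genes was 0.08 for both clones, -0.09 for clone A1, 0.17 for clone A4 and 0.20 for clone A4 against clone A1, while over all genes tested it was 0.02, -0.02, 0.03 and 0.04.

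The LINC gene that was called was LINC02780. It was at 9.66, 9.08 and 9.61 CPM in vector, 6.58, 5.70 and 5.36 CPM in clone A1 and 1.99, 2.55 and 2.13 CPM in A4. It fell by 2.09 (log2) in clone A4 (SE 0.269, edgeR adjusted p = 0.0106), and the 3 groups did not overlap. Leaving out replicate A or C of clone A4 ended the call (adjusted p = 0.105 and 0.0752), and so did leaving out replicate A or C of the vector group (0.0713 and 0.0579). In clone A1 its difference of -0.69 did not pass (SE 0.258, adjusted p = 0.521).

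Ranked by fitted log2 fold change from the lowest among the 569 LINC genes tested, the pair included, LINC01029 held place 4 and LINC02074 place 3 with both clones together. In clone A1 they held places 19 and 25, and in clone A4 LINC01029 held place 5. The other LINC genes at lower places than LINC01029 had few reads: LINC02985 had the most among them, with 160 counts summed over the 3 vector libraries, against 10183 for LINC01029 and 1477 for LINC02074. LINC01596 had 66 vector counts and 0 counts in both NCBP2 clones. These places describe how the pair was chosen.

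**Figure D3:**
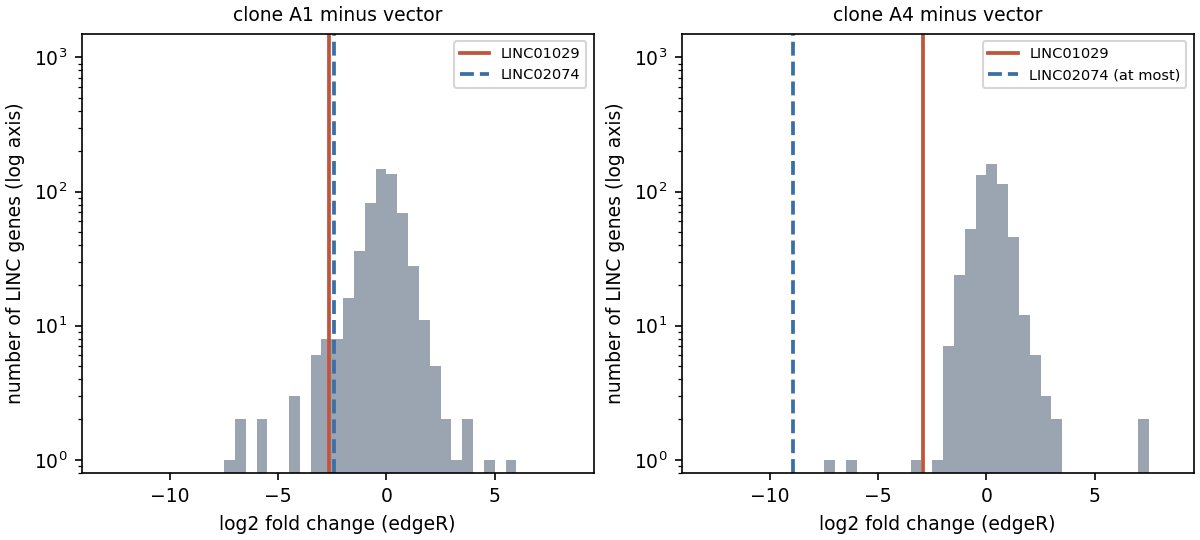
Number of LINC genes (log axis) by log2 fold change against vector (edgeR) in clone A1 (left) and clone A4 (right), with the 567 genes other than the pair in grey and LINC01029 (solid) and LINC02074 (dashed) as lines. LINC02074 in clone A4 is drawn at its upper limit of -8.92, while grey values beyond 5 in size belong to genes with 0 counts in 1 of the groups compared, whose fitted value depends on the prior count.

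The genes whose levels ran most like those of the pair were picked by Pearson correlation of log2 CPM over the 9 libraries, among 12411 genes of sufficient level. These correlations describe libraries that share clones and depth, so gaps between the groups make up much of each value. The difference of a gene picked this way from vector is no separate evidence. For LINC01029 the gap is that between vector and the NCBP2 clones. For LINC02074 the widest gap is that of clone A4, with mean log2 CPM of -4.41, against 0.92 in clone A1 and 3.35 in vector. The clone A4 value is set by the prior count of 2 and was -6.41 with a prior count of 0.5. LINC01029 and LINC02074 themselves had r = 0.781 and Spearman's rho = 0.915 with each other.

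Most like LINC01029 were CNOT4, a ubiquitin ligase of the CCR4-NOT complex (r = 0.975, rho = 0.900), and RBM28, a nucleolar RNA-binding protein (r = 0.974, rho = 0.783). Next came CNTNAP2, a neurexin-family adhesion protein (r = 0.968, rho = 0.733), EFEMP1, an extracellular matrix protein (r = 0.968, rho = 0.550), and CBX5, a heterochromatin protein (r = 0.964, rho = 0.750). CNOT4, RBM28 and CNTNAP2 are all on chromosome 7. CNTNAP2 was at 84.4, 47.8 and 72.9 CPM in vector, 27.5, 25.5 and 21.9 CPM in clone A1 and 18.5, 23.3 and 20.2 CPM in A4. It followed LINC01029 in the order of the vector clones, with clone 3 lowest. EFEMP1 was at 120.6 to 176.6 CPM in vector, 55.3 to 66.9 CPM in clone A1 and 53.3 to 59.5 CPM in A4. CNOT4 changed over a much narrower range, from 56.4 CPM in clone A4 replicate B to 86.6 CPM in vector replicate A.

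Among the genes most opposite to LINC01029 were CCT7, a subunit of the cytosolic chaperonin (r = -0.981), and WNT11, a Wnt ligand (r = -0.959). WNT11 was at 0.347, 1.52 and 0.439 CPM in vector, 3.87, 2.99 and 3.81 CPM in clone A1 and 5.56, 8.37 and 4.70 CPM in A4. All 6 NCBP2 libraries were above the vector libraries for this gene. Without clone A1 replicate A, the correlations with LINC01029 were between 0.961 and 0.981 for the 5 like genes, -0.983 for CCT7 and -0.963 for WNT11.

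Most like LINC02074 was DCP1B, a cofactor of the mRNA-decapping enzyme (r = 0.988, rho = 0.915). It was at 44.2, 38.7 and 38.7 CPM in vector, 33.3, 31.2 and 33.1 CPM in clone A1 and 19.4, 18.0 and 18.9 CPM in A4. As for LINC02074, clone A4 was lowest, clone A1 between and vector highest, with no overlap. LINC02780 (r = 0.984), the lysosomal membrane protein gene LAMP3 (r = 0.964) and the antisense RNA genes DLGAP1-AS2 (r = 0.956) and KLRK1-AS1 (r = 0.955) came next. LAMP3 was at 4.31 to 5.66 CPM in vector, 3.79 to 4.08 CPM in clone A1 and 1.66 to 2.23 CPM in A4. KLRK1-AS1 was at 17.0 to 23.5 CPM in vector, 16.1 to 21.2 CPM in clone A1 and 5.96 to 7.52 CPM in A4, so for this gene clone A1 overlapped vector. DCP1B and KLRK1-AS1 are both on chromosome 12.

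Most opposite to LINC02074 were the collagen prolyl hydroxylase gene P3H2 (r = -0.960), the long noncoding RNA gene MIR3147HG (r = -0.949) and NLRC5, a regulator of major histocompatibility class I genes (r = -0.934). P3H2 was at 21.0, 23.5 and 18.8 CPM in vector, 22.8, 25.5 and 26.3 CPM in clone A1 and 40.7, 46.8 and 44.4 CPM in A4. It was highest in clone A4, where LINC02074 had 0 counts.

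**Figure D4:**
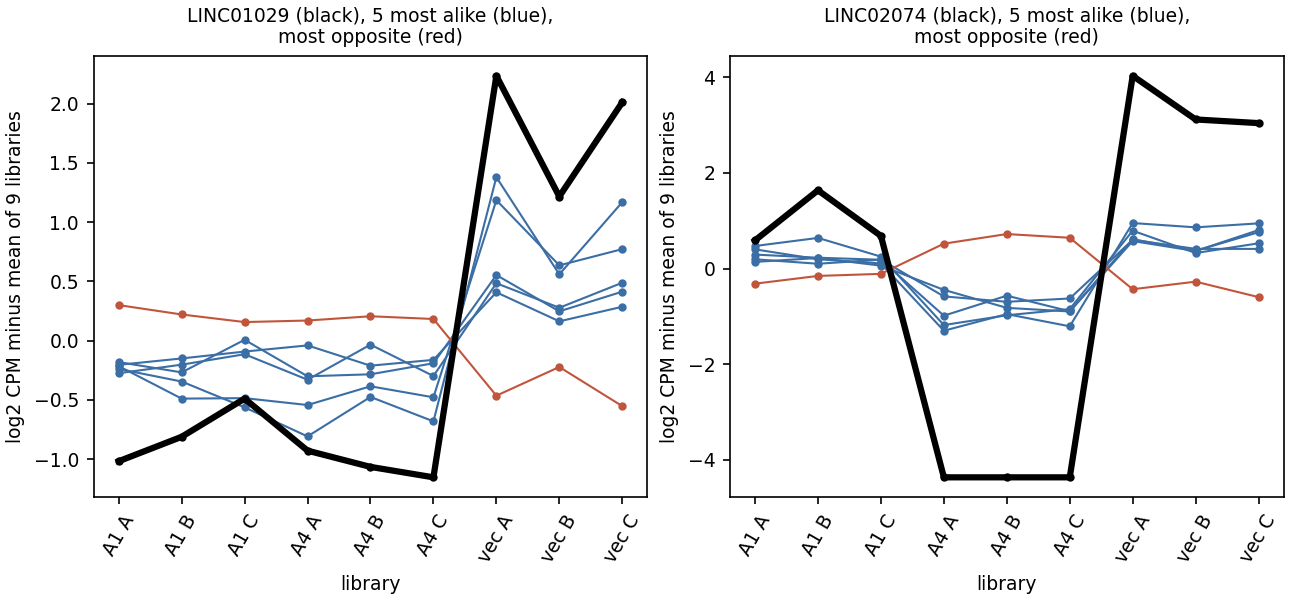
Log2 CPM minus its mean over the 9 libraries (vertical axis) for LINC01029 (left) and LINC02074 (right) in black, the 5 genes most like each in blue and the single most opposite gene (CCT7 and P3H2) in red, by library. The genes most like LINC02074 are lowest in clone A4 and those most like LINC01029 differ mainly between vector and NCBP2 libraries, and the depth of the black line at 0 counts of LINC02074 is set by the prior count of 2.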

How the data were processed

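RNA of 9 U2-OS libraries was sequenced. The labels' protocols name a kit with removal of ribosomal RNA, whereas the molecule field names polyadenylated RNA. Reads were aligned with STAR 2.7.1a to GRCh38, per the submitters' processing notes, and the counting program and annotation are not given in the sources used here. The deposited tables hold raw counts per gene made by the authors, without normalization, in columns without regard to strand, for the strand of the gene (column 3, used here) and for the opposite strand (column 4), a layout read from the values. The 4 lines that name no gene held 44.5% to 63.6% of a library's reads and entered neither the library sizes nor the tests. Of 60609 identifiers, 60295 were matched to GENCODE 44 without their version, and that release gave symbols, neighbours and sequences. Of the 2 RNAs, 0 matched the RefSeq promoter table.

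Counts were fitted with edgeR 4.0.16 in R 4.3.3 (filterByExpr, TMM, robust quasi-likelihood, Benjamini-Hochberg adjusted p under 0.05 over 21682 genes). The NCBP2 clones together (6 libraries) were set against vector (3 libraries) in a 2-group fit, and each clone separately in a 3-group fit. Each SE was derived from the test, as the size of the log2 fold change divided by the square root of the quasi-likelihood F statistic. CPM used TMM-scaled library sizes, and log2 CPM a prior count of 2. The fits were tested on simulated data. Alternatives were DESeq2 1.42.0, its scaling within edgeR, no filter on low counts, counts without regard to strand, counts summed per clone, only the 6 libraries compared, a replicate block and leaving out each library in turn. No pair of libraries of a group agreed within sampling noise, with a chi-square per degree of freedom of at least 28.9. Adjusted p values measure the spread between these libraries, which may be technical within an NCBP2 clone. Among the vector libraries it includes differences between clones. The fits treat the 3 libraries of an NCBP2 clone as replicates, so the clone is not the unit of these tests. With counts summed per clone, edgeR called 0 genes for both clones against vector.

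The 2 RNAs and the gene lists were chosen with earlier results of these data known. The text names the pair, NCBP2, neighbours within 1 Mb that were called and the 12 nearest tested ones with a symbol, other LINC genes called, and the 5 genes most like and 3 most opposite to each RNA by Pearson correlation, 1 of which is not reported here.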

Additional observations from a re-analysis of the deposited data

Results flagged for a closer look

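Among the genes named above, 34 were examined for a library far from the other 5 of the 6 NCBP2 libraries, and chance alone marks about 1 in 20 such groups. GPRC5C, an orphan G-protein-coupled receptor gene near LINC02074, was listed because clone A4 replicate C was at 2.37 CPM, while the next NCBP2 library was at 0.965 CPM, a gap of 0.799 of the whole range. RBM28, one of the genes most like LINC01029, was listed because clone A1 replicate C was at 50.5 CPM and the next NCBP2 library at 44.3 CPM, a gap of 0.634 of the range.

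Of 33 named genes compared between the NCBP2 clones, KLRK1-AS1 was listed because clone A4 minus clone A1 was a log2 difference of -1.46 (SE 0.228, edgeR adjusted p = 0.0283), with no overlap of the 3 libraries of each. It was named for its likeness to LINC02074, which is itself lower in clone A4, so this p is not separate evidence.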

How the results depend on the processing

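Depth limits LINC02074 in clone A4 to at most 0.0220 CPM. The called fold change of LINC02780 in clone A4 kept its sign in 15 alternatives, at -2.22 to -2.03, and stayed called in 11. Fold changes near 0 of some neighbours that were not called did change sign. For both clones against vector, that of GPRC5C ran from -0.63 to 0.24 and that of RPL38 from -0.09 to 0.16. The log2 fold changes of LINC01029 stayed between -3.03 and -2.57 for both clones, -2.88 and -2.43 for clone A1, and -3.18 and -2.73 for clone A4. For LINC02074 with both clones, the values with 1 library left out ranged from -4.24 to -3.08, and the least fold of vector over clone A4 was 314.7 to 546.5 and that of clone A1 57.8 to 101.4. For both clones, A1 and A4 each against vector, and then A4 against A1, in that order, edgeR called 4, 14, 25 and 35 genes, DESeq2 103, 274, 185 and 246, edgeR without the filter 20, 312, 163 and 231, and the replicate block 13, 38, 53 and 51. Leaving out 1 library gave 1 to 8, 3 to 14, 7 to 41 and 10 to 56 genes. Counts summed per clone called 0 for both clones, and clone A1 against vector fitted on those 6 libraries called 7. The neighbour of LINC01029 called under any alternative was ENSG00000264334: 1 by DESeq2 and 1 by the replicate block in each comparison with vector, 1 without the filter for clone A1 and for clone A4, and 0 to 1 with 1 library left out for clone A4, called without clone A4 replicate A or vector replicate B. LINC genes called numbered 8 (clone A1), 4 (clone A4) and 10 (between clones) by DESeq2, and 4, 5 and 6 without the filter. They numbered 1 between clones without regard to strand and 1 with the block. With 1 library left out, they numbered 0 to 1 for both clones, 0 to 2 for clone A4 and 0 to 1 between clones. The cause of these moves was not tested. The letters of the replicates were not taken to pair the libraries. Same-letter libraries had correlations of their deviations of -0.102 to 0.179, over 0.1 in 6 of 9 pairs. Libraries of different letters and groups had -0.271 to 0.221, and 8 of 18 comparisons were best with their own letter.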
